A study of Mus musculus with 6 samples.

Results

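Resident cardiac macrophage genes were examined in whole heart tissue, using 9 genes commonly taken as markers of these cells: *Lyve1*, *Timd4*, *Folr2*, *Mrc1*, *Cd163*, *Csf1r*, *Adgre1* (formerly *Emr1*), *F13a1* and *Cbr2*. They were chosen by symbol, not by a cut on measured values, but with earlier results of these data known. Each was matched to its NCBI gene number in the deposited tables. All 9 were listed in each of the 6 libraries, out of 17441 genes listed in any library, and all 9 were among the 13120 genes tested.

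RNA came from heart tissue below the ligature 3 days after surgery, in male mice labelled as 12 weeks old. The groups were wild-type mice after a sham operation (WT Sham), wild-type mice with the left anterior descending artery of the heart tied off, which causes myocardial infarction (WT MI), and mice labelled *Card9* KO with the artery tied off (*Card9* KO MI). CARD9 is an adapter protein of innate immune receptors, and the study asked how its loss alters gene expression in the infarcted heart. Each group had 2 libraries. The strains share a C57BL/6 background, the sham mice had the same surgery without ligation, and controls in the study's methods were littermates or C57BL/6 mice without a statement of which gave these libraries. How the *Card9* allele was made is not given in the sources used here. The labels do not say whether the libraries of a group came from separate animals, so p-values measure only the spread between these samples. Sham-operated *Card9* KO mice were not analysed here, and where *Card9* KO MI is set against WT Sham, genotype and infarct cannot be told apart. An exact permutation test of 1 gene in groups of 2 cannot give a p under 0.05 and was not run.

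The values are FPKM, which scale fragments to transcript length and library size, so levels can be set side by side between genes per length. Depth, read from the steps between low FPKM values, was estimated at about 3010180 to 4256725 fragments. The targeted gene went against its label. *Card9* was at 0.99 and 1.03 FPKM in the WT Sham libraries, 3.39 and 5.08 in those of WT MI, and 9.85 and 6.94 in those labelled *Card9* KO MI. The difference between the infarct groups was 0.85 ± 0.23 (log2, SE) upward with an adjusted p of 0.11 (limma, Benjamini-Hochberg). *Card9* shares 87 exon bases with the noncoding gene *Gm13562* on the other strand. The study also blotted CARD9 protein in bone marrow-derived macrophages of WT and *Card9* KO mice, which these RNA values do not cover. Which exons the knockout lacks is not given in the sources used here, so each direction against WT MI below rests on the label. Cardiomyocyte markers were abundant in every library, with 7 genes summing to 42607 and 44404 FPKM in the WT Sham libraries, 27254 and 27891 in those of WT MI, and 22538 and 26201 in those labelled *Card9* KO MI.

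Resident cardiac macrophages are phagocytes that largely settle in the heart before birth and renew there by division, with little input from blood monocytes. They clear dying cells and debris. After an infarct many of them are lost from the injured zone, while monocytes enter from the blood and become macrophages. LYVE1, TIM-4 and FOLR2 on the surface are the usual marks of the resident cells, whereas CSF1R and F4/80, the product of *Adgre1*, are carried by macrophages of either origin.

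Whether upstream sequence bears on the changes after infarction was not tested. Sequences upstream of some members are shown only as a description. They are RefSeq promoters of build GRCm38.p6, from 250 bases before to 50 bases after the start of transcription, for *Mrc1* and *Cbr2*, which rose in WT MI, and for *Timd4* and *Cd163*, which were not called. Capitals mark the letters GAGGAA, the core bound by the macrophage factor PU.1, and TGCTGA, the half-site of MAF factors, each on either strand (TTCCTC and TCAGCA in reverse). Coordinates are chr2:14229164-14229463 on the plus strand for *Mrc1*, chr11:120731972-120732271 on the minus strand for *Cbr2*, chr11:46810549-46810848 on the plus strand for *Timd4*, and chr6:124304401-124304700 on the plus strand for *Cd163*.
Mrc1: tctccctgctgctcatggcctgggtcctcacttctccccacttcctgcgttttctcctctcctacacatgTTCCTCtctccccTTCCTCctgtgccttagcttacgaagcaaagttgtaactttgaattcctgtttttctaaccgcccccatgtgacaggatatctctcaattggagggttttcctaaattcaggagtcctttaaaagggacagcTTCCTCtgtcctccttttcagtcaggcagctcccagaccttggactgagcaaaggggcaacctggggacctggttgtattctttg
Cbr2: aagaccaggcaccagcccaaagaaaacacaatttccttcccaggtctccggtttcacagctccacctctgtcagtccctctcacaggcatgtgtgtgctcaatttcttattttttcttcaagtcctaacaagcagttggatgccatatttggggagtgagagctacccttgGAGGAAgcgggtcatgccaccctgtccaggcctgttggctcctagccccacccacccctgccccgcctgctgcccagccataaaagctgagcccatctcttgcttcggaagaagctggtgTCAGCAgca
Timd4: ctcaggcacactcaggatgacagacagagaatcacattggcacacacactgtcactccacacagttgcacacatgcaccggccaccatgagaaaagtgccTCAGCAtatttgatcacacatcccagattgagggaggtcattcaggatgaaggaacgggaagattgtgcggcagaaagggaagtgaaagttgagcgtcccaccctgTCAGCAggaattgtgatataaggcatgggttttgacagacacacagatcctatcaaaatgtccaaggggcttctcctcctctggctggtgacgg
Cd163: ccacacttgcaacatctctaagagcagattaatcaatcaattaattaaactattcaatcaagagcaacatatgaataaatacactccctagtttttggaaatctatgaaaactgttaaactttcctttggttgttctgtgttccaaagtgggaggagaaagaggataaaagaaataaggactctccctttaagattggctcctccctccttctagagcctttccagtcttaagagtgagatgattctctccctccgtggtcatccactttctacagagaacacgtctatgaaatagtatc
Both motifs were short and common: GAGGAA was in 28.3% and TGCTGA in 19.5% of all 32851 RefSeq promoters of this length. The *Mrc1* promoter held GAGGAA 3 times and TGCTGA 0 times. The *Cbr2* promoter held each 1 time, the *Timd4* promoter held TGCTGA 2 times, and the *Cd163* promoter held neither. Of the members without a printed sequence, *F13a1* had 2 promoters with GAGGAA 2 times in one and 1 time in the other, and *Folr2*, which also rose in WT MI, had 2 promoters with GAGGAA 0 times and TGCTGA 1 time in each. *F13a1* held TGCTGA 0 times in both. The promoters of *Lyve1*, *Csf1r* and *Adgre1* were not examined, although *Csf1r* and *Adgre1* also rose in WT MI. These are matches of letters, not binding sites.

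The first members are scavenger and uptake receptors, of which *Lyve1*, *Timd4* and *Folr2* encode the usual surface marks of resident cells. *Lyve1* (mm9 chr7:117994121-118006467, minus strand) encodes a hyaluronan receptor, also made by lymphatic endothelium. It was at 12.2 and 11.72 FPKM in the WT Sham libraries, 12.57 and 14.38 in those of WT MI, and 4.7 and 6.84 in those labelled *Card9* KO MI. Both of these last values lay below the other 4. *Lyve1* did not differ detectably between WT MI and WT Sham, with a log2 fold change of 0.16 ± 0.18 (SE) and a 95% interval of -0.25 to 0.57, and its sign turned to -0.04 under upper-quartile scaling and -0.08 under quantile normalization. It was lower in libraries labelled *Card9* KO MI than in the WT infarcts by the limma test, with a log2 fold change of -1.11 ± 0.18 (SE), a 95% interval of -1.52 to -0.70 and a ratio of group means of 0.428 (adjusted p = 0.037). Its percentile among all tested genes was 63.7 in the WT Sham libraries, 62.3 in those of WT MI and 34.6 in those labelled *Card9* KO MI.

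The call of *Lyve1* between the infarct groups was close to the threshold. It was lost in 10 of 17 alternative settings, over which the adjusted p of limma ran from 0.023 to 0.19, and the direction was kept in all 17. Leaving out a WT Sham library, which changes only the shared spread and the genes tested, gave 0.052 without replicate 1 and 0.051 without replicate 2. Without WT MI replicate 1 the log2 fold change was -1.20 (adjusted p = 0.19, limma), without WT MI replicate 2 it was -1.02 (adjusted p = 0.16), and without *Card9* KO MI replicate 1 it was -0.88 (adjusted p = 0.12). Against WT Sham, the fall of *Lyve1* in libraries labelled *Card9* KO MI was -0.95 on the log2 scale (adjusted p = 0.0032, limma), a call kept in all 17 settings.

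Lymphatic endothelial markers were measured beside *Lyve1*, since those vessels also make it. The 6 lymphatic genes summed to 47.4 and 51.9 FPKM in the WT Sham libraries, 70.2 and 96.5 in those of WT MI, and 62.9 and 49.2 in those labelled *Card9* KO MI. The sum in WT MI was carried largely by *Pdpn*, podoplanin, which other stromal cells also make and which was at 2.69 and 3.55, 35.6 and 35.46, and 25.94 and 20.58 FPKM in these groups. In *Card9* KO MI against WT MI, 0 of the 5 tested were called by limma, and 2 were lower at an unadjusted p below 0.05 (8.57% of all genes were). All 5 had log2 fold changes below 0, with a median of -0.42, and 3 were lower without overlap, against 21.9% of all genes. *Prox1*, the transcription factor that defines lymphatic endothelium and is also made by cardiomyocytes, was at 17.6 and 21.12 FPKM in the WT Sham libraries, 11.05 and 10.33 in those of WT MI, and 7.33 and 8.15 in those labelled *Card9* KO MI. *Flt4*, the VEGF-C receptor, was at 11.52 and 11.68 FPKM in WT MI and 9.61 and 10.26 in libraries labelled *Card9* KO MI. Their part in the result for *Lyve1* was not tested.

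*Timd4* (mm9 chr11:46624302-46657834, plus strand) encodes TIM-4, a receptor for phosphatidylserine on dying cells. It was the lowest member in all 6 libraries, at 1.45 and 1.36 FPKM in the WT Sham libraries, 1.25 and 1.63 in those of WT MI, and 1.6 and 0.78 in those labelled *Card9* KO MI. The groups overlapped in every comparison. These values rest on an estimated 6.99 to 14.8 fragments a library, where 3 fragments would be worth 0.324 to 0.459 FPKM. The 95% interval of the log2 fold change was -0.57 to 0.60 in WT MI against WT Sham. Between the infarct groups it was -0.76 to 0.41. Changes within these intervals are not excluded. The intervals are on log2(FPKM + 1), which understates changes of a gene this low. With an added FPKM of 0.1 the estimate between the infarct groups moved from -0.18 to -0.32. The estimate in WT MI against WT Sham, 0.02, turned negative under each other scaling, at -0.11, -0.34 and -0.07.

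*Cd163* (mm9 chr6:124254669-124280545, plus strand), the scavenger receptor for haemoglobin bound to haptoglobin, was at 4.57 and 4.8 FPKM in the WT Sham libraries, 10.34 and 5.59 in those of WT MI, and 3.37 and 3.1 in those labelled *Card9* KO MI. The WT MI libraries were far apart, and both libraries labelled *Card9* KO MI lay below the other 4. In WT MI against WT Sham the log2 fold change was 0.60 ± 0.25 (SE) with an adjusted p of 0.095 (limma), and it was 1.00 with an adjusted p of 0.015 without WT MI replicate 2. Its log2 fold change between the infarct groups was -1.03 ± 0.25 (SE), close to that of *Lyve1*, with a 95% interval of -1.61 to -0.45 and an adjusted p of 0.094 (limma). That difference did not pass the threshold in any of the 17 alternative settings, where the adjusted p ran from 0.067 to 0.33.

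*Folr2* (mm9 chr7:108988512-108993831, minus strand), the folate receptor beta, was at 11.71 and 9.77 FPKM in the WT Sham libraries, 17.86 and 25.19 in those of WT MI, and 25.6 and 17.48 in those labelled *Card9* KO MI. Every infarct library was above both sham libraries, and the infarct groups covered nearly the same range. *Folr2* rose in WT MI by 0.93 ± 0.22 on the log2 scale (SE, adjusted p = 0.013, limma), a ratio of means of 2.0. The rise lost its call without WT Sham replicate 2 (0.81, adjusted p = 0.070) and without WT MI replicate 2 (0.69, adjusted p = 0.085). The 95% interval of its log2 fold change between the infarct groups was -0.51 to 0.50.

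*Mrc1* (mm9 chr2:14151041-14253684, plus strand), the mannose receptor CD206, was at 6.99 and 7.48 FPKM in the WT Sham libraries, 20.77 and 23.49 in those of WT MI, and 29.79 and 22.4 in those labelled *Card9* KO MI. It rose 3.06 times in WT MI (log2 fold change 1.49 ± 0.16, SE, adjusted p = 0.00036, limma). Unlike *Lyve1* it was above sham in every infarct library. The infarct groups overlapped, with a 95% interval of -0.14 to 0.58 around 0.22. The microRNA gene *Mir511* lies within *Mrc1* on the same strand and shared 0 exon bases with it.

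The receptors of macrophages in general were higher in both infarct groups. *Csf1r* (mm9 chr18:61265226-61291803, plus strand) encodes the receptor for CSF1 and IL-34, on which macrophages depend for survival. It was at 19.18 and 15.45 FPKM in the WT Sham libraries, 36.44 and 35.85 in those of WT MI, and 67.0 and 54.74 in those labelled *Card9* KO MI, so that the 3 groups stood in steps without overlap. *Csf1r* rose in WT MI by 1.03 ± 0.14 on the log2 scale (SE, adjusted p = 0.0012, limma), a ratio of 2.09. Its log2 fold change from WT MI to the libraries labelled *Card9* KO MI was 0.73, with a 95% interval of 0.40 to 1.06 and an adjusted p of 0.057. It passed the threshold in 4 of 17 alternative settings, with adjusted p-values of 0.039 to 0.044, and the highest adjusted p over all of them was 0.28. *Csf1r* shares 871 exon bases with *Hmgxb3* on the other strand, and whether the counting used strand is not given in the sources used here. *Hmgxb3* itself was between 5.87 and 7.77 FPKM in the 6 libraries.

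*Adgre1* (mm9 chr17:57498109-57622952, plus strand), which encodes the adhesion receptor F4/80, was at 5.61 and 2.83 FPKM in the WT Sham libraries, 16.96 and 17.44 in those of WT MI, and 30.86 and 22.6 in those labelled *Card9* KO MI. Its order of groups was that of *Csf1r*, again without overlap. It rose 4.08 times in WT MI, the largest ratio among the 9 genes, with a log2 fold change of 1.85 ± 0.26 (SE, adjusted p = 0.0013, limma). The log2 fold change between the infarct groups was 0.59, with a 95% interval of -0.01 to 1.19 and an adjusted p of 0.25.

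The remaining members are enzymes. *F13a1* (mm9 chr13:36959047-37142113, minus strand) encodes the A chain of coagulation factor XIII, a transglutaminase also made by monocytes and megakaryocytes. It was at 15.52 and 11.97 FPKM in the WT Sham libraries, 52.59 and 47.59 in those of WT MI, and 37.41 and 33.16 in those labelled *Card9* KO MI. The highest values were those of WT MI, and no groups overlapped. *F13a1* rose in WT MI by 1.80 ± 0.14 on the log2 scale (SE, adjusted p = 0.00013, limma), a ratio of 3.64. The infarct groups differed by a log2 fold change of -0.49, with a 95% interval of -0.83 to -0.16 and an adjusted p of 0.12. Beside it, the platelet chemokine *Ppbp* was at 0.29 and 1.82 FPKM in the WT Sham libraries, 12.02 and 13.06 in those of WT MI, and 9.16 and 4.88 in those labelled *Card9* KO MI. The 6 listed genes of megakaryocytes and platelets summed to 3.24 and 4.36, 14.4 and 17.1, and 12.0 and 7.05 FPKM in these groups. Of the 3 that could be tested, 1 was called higher in WT MI by limma, against 27.7% of all genes. Between the infarct groups 0 were called and none passed an unadjusted p of 0.05. Their part in the values of *F13a1* was not tested.

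*Cbr2* (mm9 chr11:120590803-120593428, minus strand), a carbonyl reductase, was at 24.6 and 21.38 FPKM in the WT Sham libraries, 40.94 and 45.39 in those of WT MI, and 43.09 and 43.93 in those labelled *Card9* KO MI. It rose in WT MI by 0.88 ± 0.11 on the log2 scale (SE, adjusted p = 0.00087, limma). The infarct groups coincided, with the narrowest 95% interval of the 9 genes, -0.25 to 0.27. The estimate of 0.01 turned to -0.02 under upper-quartile scaling and to -0.01 when the 100 most abundant genes were left out of the scaling.

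**Figure D1:**
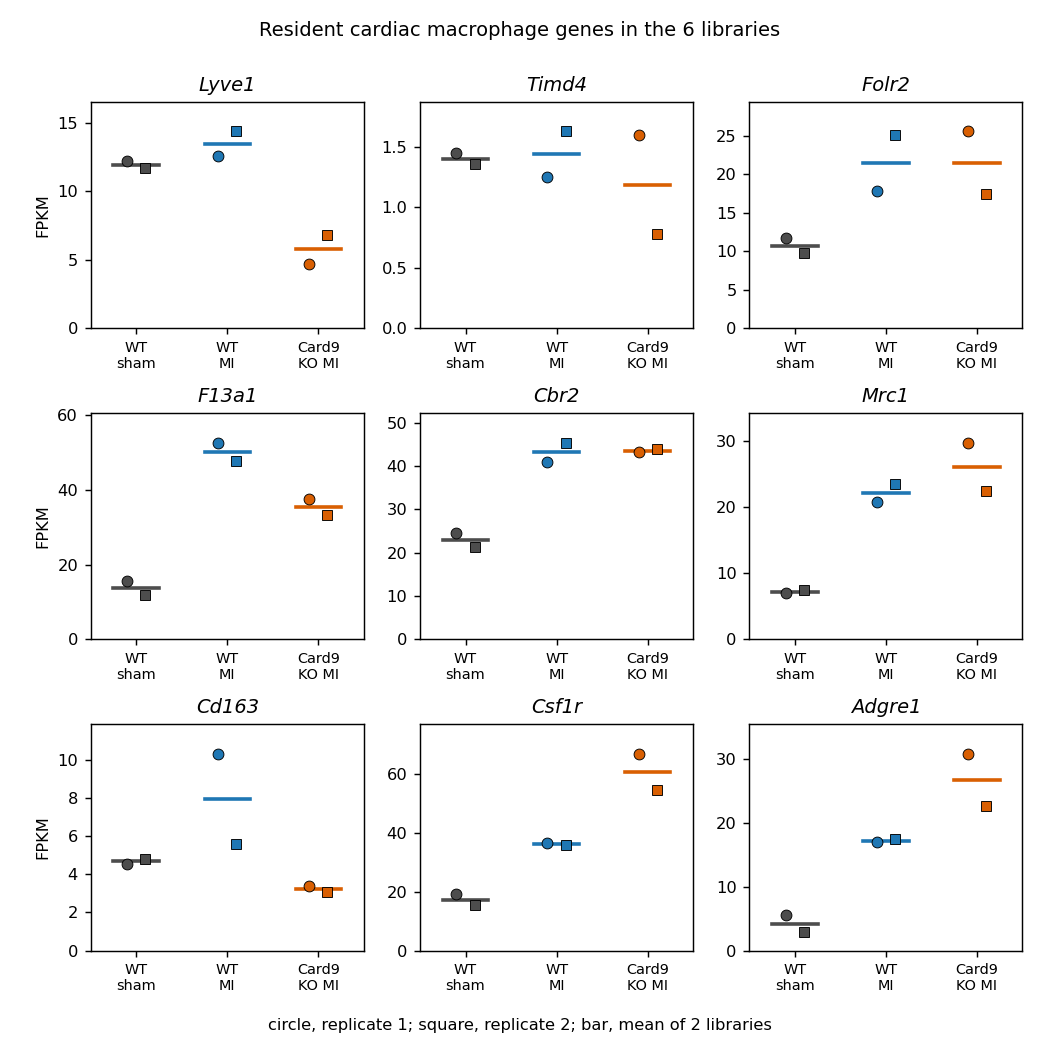
FPKM of each of the 9 genes in the 6 libraries, by group, on linear axes that start at 0, with circles for replicate 1, squares for replicate 2 and a bar at the mean of 2 libraries. *Lyve1* and *Cd163* were lowest in libraries labelled *Card9* KO MI, while *Csf1r* and *Adgre1* were highest there, *F13a1* was highest in WT MI, and *Timd4* stayed between 0.78 and 1.63 FPKM.

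After infarction most of the members were higher. In WT MI against WT Sham, 6 of the 9 rose and 0 fell by the limma test, where 27.7% of all 13120 genes were called higher and 9.39% lower. The 6 were *Folr2*, *Mrc1*, *Csf1r*, *Adgre1*, *F13a1* and *Cbr2*, and without WT Sham replicate 2 the number was 5. Without WT MI replicate 2 it was again 6, with *Cd163* called and *Folr2* not. The libraries of 8 members did not overlap and were higher, against 48.3% of all genes, and those of 0 members were lower, against 22.1%. The median log2 fold change was 0.93 over the members and 0.19 over all genes, a shift of the whole table that upper-quartile scaling brought to 0. Under that scaling all 6 kept their call, with log2 fold changes from 0.67 for *Cbr2* to 1.67 for *Adgre1*. It also moved the calls over all genes from 3637 higher and 1232 lower to 2603 and 2159. In bulk tissue, fewer cells of a type and less RNA per cell cannot be told apart.

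Between the infarct groups, *Lyve1* was the only member called by limma, and 0 members were called higher. Over all genes, 0.587% were called lower and 0.816% higher. At an unadjusted p below 0.05, 1 member was higher, against 11.5% of all genes, and 3 were lower, against 8.57%. The 9 members lay on both sides: 2 did not overlap and were higher, *Csf1r* and *Adgre1*, against 30.8% of all genes, and 3 did not overlap and were lower, *Lyve1*, *F13a1* and *Cd163*, against 21.9%. The median log2 fold change of the members was 0.00, against 0.04 over all genes. *Timd4*, *Folr2*, *Cbr2* and *Mrc1* overlapped. The number of members called was 0 without either WT Sham library, without either WT MI library or without *Card9* KO MI replicate 1.

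In *Card9* KO MI against WT Sham, 6 members were called higher and *Lyve1* lower, where 34.8% of all genes were called higher and 14.3% lower. The 6 were those called in WT MI. This comparison shares its libraries with the other two, so its values stand beside them as a description. The log2 fold change was 2.45 ± 0.26 (SE) for *Adgre1*, 1.76 for *Csf1r*, 1.71 for *Mrc1*, 1.31 for *F13a1*, 0.92 for *Folr2* and 0.89 for *Cbr2*, beside a median of 0.24 over all genes. *Folr2* lost its call without WT Sham replicate 2 (adjusted p = 0.054, limma) or *Card9* KO MI replicate 1 (adjusted p = 0.062). *Cd163* was at -0.43 (adjusted p = 0.19) and passed the threshold only under quantile normalization, at -0.84 with an adjusted p of 0.027. Against WT Sham, 6 members did not overlap and were higher, against 51.6% of all genes, and 2 did not overlap and were lower, against 24.5%.

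**Figure D2:**
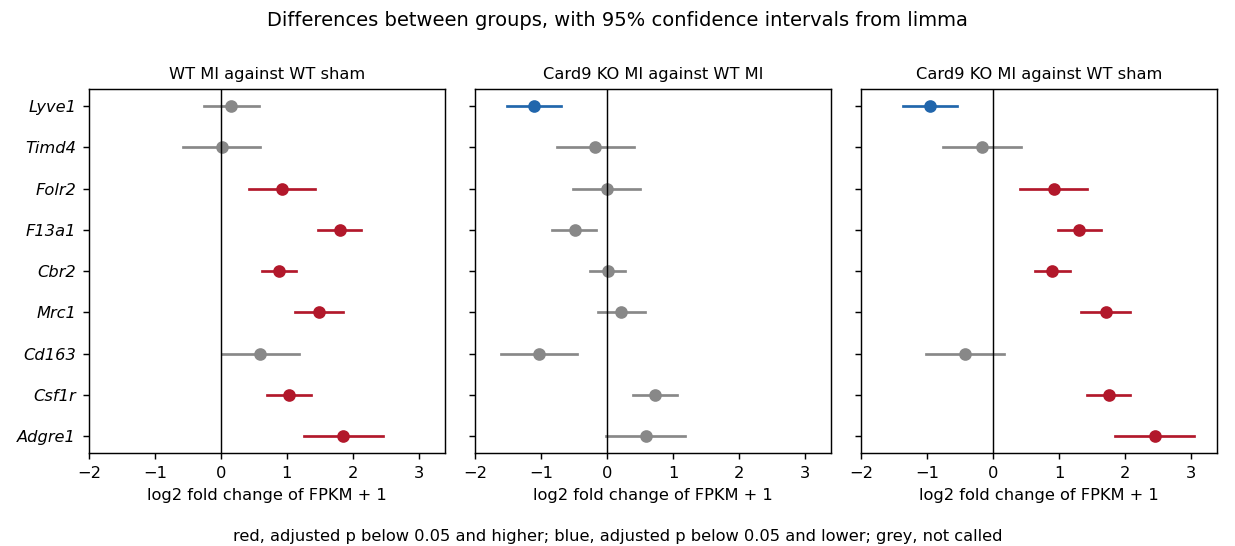
Log2 fold change of FPKM + 1 with its 95% confidence interval from limma for the 9 genes in the 3 comparisons, with red for called higher, blue for called lower and grey for not called at an adjusted p of 0.05. The 6 genes in red in WT MI against WT Sham were also red in *Card9* KO MI against WT Sham, and *Lyve1* was the gene in blue between the infarct groups.

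The order of the members by level differed between groups. *Cbr2* had the highest FPKM in both WT Sham libraries, *F13a1* in both WT MI libraries and *Csf1r* in both libraries labelled *Card9* KO MI. *Lyve1* ranked 4 of 9 in WT Sham and 7 of 9 in all infarct libraries, although its FPKM in WT MI was not below that in WT Sham. *Adgre1* moved up from ranks 7 and 8 in WT Sham to 6 in the WT infarcts and 4 in libraries labelled *Card9* KO MI. Neighbours in this order often overlapped: in WT Sham, *Csf1r* with *F13a1*, *F13a1* with *Lyve1*, and *Cd163* with *Adgre1*. In WT MI, *Folr2* overlapped with *Mrc1*, and in libraries labelled *Card9* KO MI so did *Adgre1*, *Mrc1* and *Folr2* among themselves.

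To place the members against the macrophage receptor within a library, each FPKM was divided by that of *Csf1r* in the same library. The ratio of *Lyve1* was 0.636 and 0.759 in the WT Sham libraries, 0.345 and 0.401 in those of WT MI, and 0.0701 and 0.125 in those labelled *Card9* KO MI. That of *Timd4* was 0.0756 and 0.088, then 0.0343 and 0.0455, then 0.0239 and 0.0142 in the same order. Both ratios were lower in WT MI than in sham and lower again in libraries labelled *Card9* KO MI, without overlap. The FPKM of *Timd4* overlapped throughout. In WT MI against WT Sham the ratios of group means, 0.535 for *Lyve1* and 0.488 for *Timd4*, were near the median of all genes, 0.549. Between the infarct groups they were 0.262 and 0.478, beside a median of 0.62 over all genes. The ratio of *Cd163* was 0.238 and 0.311 in the WT Sham libraries, 0.284 and 0.156 in those of WT MI, and 0.0503 and 0.0566 in those labelled *Card9* KO MI. By contrast, that of *Adgre1* was 0.465 and 0.486 in WT MI and 0.461 and 0.413 in libraries labelled *Card9* KO MI, up from 0.292 and 0.183 in WT Sham.

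These ratios share *Csf1r* as a denominator, whose own FPKM was 1.68 times higher in the mean of the group labelled *Card9* KO MI. Between the infarct groups, all 8 ratios of the members were lower without overlap and 0 were higher, but 81.7% of all 13119 genes were lower too and 2.07% higher. The median ratio of the group means was 0.533 over the members and 0.62 over all genes. For 16 genes of macrophages and myeloid cells in general it was 0.987, with 4 of the 16 lower without overlap. For 20 other resident macrophage genes it was 0.692, with 13 lower, for the 14 monocyte genes 0.683, with 8 lower, and for the 12 genes of the CSF1 receptor axis 0.774, with 8 lower. In WT MI against WT Sham, 3 member ratios were higher without overlap (*F13a1*, *Mrc1* and *Adgre1*), against 10.9% of all genes, and 3 were lower (*Lyve1*, *Timd4* and *Cbr2*), against 74.0%. The 16 general myeloid genes were all higher. Divided by *Adgre1* instead, *F13a1* and *Mrc1* overlapped between WT MI and WT Sham, with ratios of group means of 0.833 and 0.661. *Lyve1*, *Timd4*, *Folr2*, *Cbr2*, *Cd163* and *Csf1r* were then lower without overlap, and no member was higher. *Adgre1* itself rose 4.08 times in WT MI, which lowers any ratio to it. The share over all genes was not computed for this divisor, so these counts are not a result about the members.

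**Figure D3:**
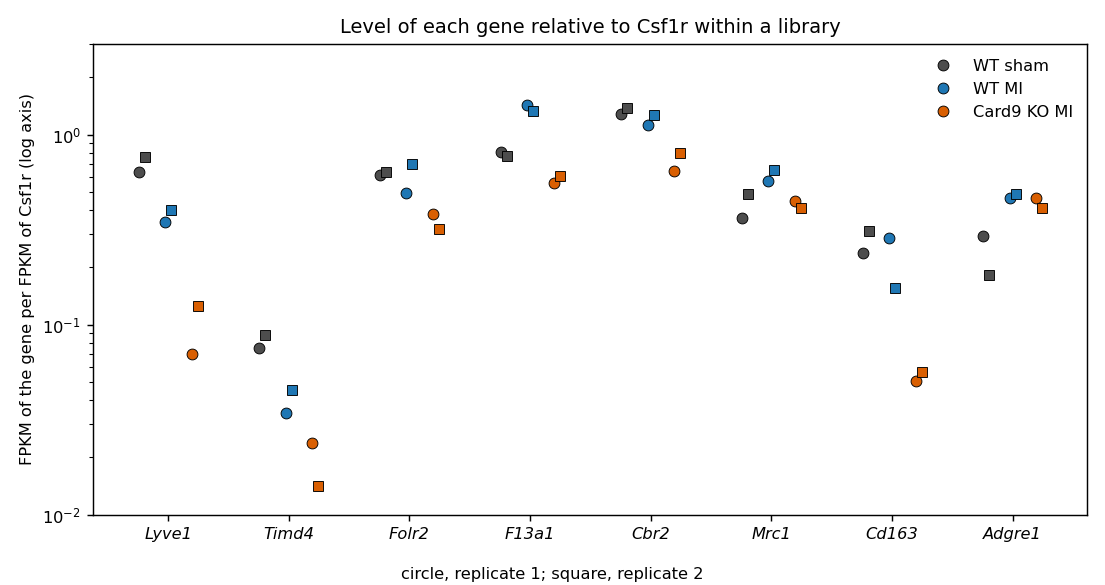
FPKM of 8 genes divided by the FPKM of *Csf1r* in the same library, on a log axis, with colours for the groups, circles for replicate 1 and squares for replicate 2. *Lyve1* ran from 0.759 down to 0.0701, *Timd4* from 0.088 down to 0.0142, and *Cd163* was at 0.0503 and 0.0566 in libraries labelled *Card9* KO MI, while *Adgre1* there was near its ratio in WT MI.

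Other genes of resident tissue macrophages gave the wider background. Of 22 such genes, 20 were tested. In WT MI 12 rose and 0 fell by the limma test, against 27.7% and 9.39% of all genes. The median log2 fold change was 0.84, against 0.19 over all genes. *Pf4*, a chemokine of these cells and of platelets, was at 10.19 and 13.43 FPKM in WT Sham and 102.78 and 113.47 in WT MI. In *Card9* KO MI against WT MI, 3 were called higher and 0 lower, against 0.816% and 0.587% of all genes, with a median of 0.20. *Fcrls*, an Fc receptor-like gene of microglia and other resident macrophages, was at 8.95 and 13.8 FPKM in WT MI and 62.8 and 49.49 in libraries labelled *Card9* KO MI (log2 fold change 2.23 ± 0.29, SE, adjusted p = 0.021, limma). *Cx3cr1*, the fractalkine receptor, was at 6.08 and 8.18 against 16.33 and 15.96 (adjusted p = 0.034, limma). *Selenop*, a selenium carrier also made outside macrophages, was at 213.38 and 236.98 against 327.98 and 314.53 (adjusted p = 0.047, limma). Which cells of the tissue made the RNA of these 3 genes was not tested. At an unadjusted p below 0.05, 5 of the 20 were higher and 3 lower, against 11.5% and 8.57% of all genes. The 3 lower ones, singled out after their values were seen, were *Mgl2*, *Vsig4* and *Gas6*. *Mgl2*, a galactose-type lectin, was at 11.27 and 9.49 FPKM in the WT Sham libraries, 11.18 and 11.13 in those of WT MI, and 6.68 and 5.69 in those labelled *Card9* KO MI (adjusted p = 0.057 between the infarct groups, limma). *Vsig4*, a complement receptor, had a ratio of infarct group means of 0.384 (adjusted p = 0.15), and *Gas6*, a bridge to dying cells, one of 0.849 (adjusted p = 0.22). Of the 9 members, 0 were called higher and 1 lower. Whether the lists differ was not tested, and the calls of this list were not followed over the alternative settings. At an unadjusted p below 0.05, both lists had genes on each side.

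Most genes of the CSF1 receptor axis, a list of its ligands, other CSF receptors and factors of the macrophage lineage, rose with *Csf1r* after infarction. Of 12, 11 rose in WT MI and 0 fell, against 27.7% and 9.39% of all genes. Their median log2 fold change was 1.92, against 0.19 over all genes. The gene not called was the ligand *Il34*, at 1.66 and 1.73 FPKM in WT Sham and 3.32 and 1.04 in WT MI. *Spi1*, which encodes PU.1, was at 9.82 and 7.24 FPKM in the WT Sham libraries, 40.08 and 44.3 in those of WT MI, and 65.98 and 42.71 in those labelled *Card9* KO MI. *Tyrobp*, the signalling adapter DAP12, was at 18.07 and 14.14, 117.47 and 109.0, and 196.68 and 141.78 FPKM in these groups. *Trem2*, a lipid receptor that signals through it, was at 2.36 and 1.84, 25.1 and 34.21, and 66.38 and 44.07. Between these infarct groups 0 of the 12 were called by limma, the median was 0.35, 8 were above 0, and 5 were higher at an unadjusted p below 0.05, against 11.5% of all genes. *Csf3r*, the G-CSF receptor of neutrophils and monocytes, was at 28.77 and 14.47 FPKM in WT MI and 14.01 and 11.62 in libraries labelled *Card9* KO MI (adjusted p = 0.26).

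Markers of monocytes and of the macrophages they form were measured because they share *Csf1r*, *Adgre1* and *F13a1* with resident cells. All 14 rose in WT MI, where 27.7% of all genes were called higher. Their median log2 fold change was 2.89, against 0.19 over all genes. They summed to 24.3 and 19.1 FPKM in the WT Sham libraries, 379 and 381 in those of WT MI, and 327 and 304 in those labelled *Card9* KO MI. In *Card9* KO MI against WT MI, 1 was called higher and 2 lower, against 0.816% and 0.587% of all genes. *Ms4a4c* was at 4.5 and 4.69 FPKM in WT MI and 12.86 and 25.03 in libraries labelled *Card9* KO MI, whereas *Chil3*, a chitinase-like secreted protein, was at 86.47 and 57.22 against 13.71 and 12.11, and the enzyme arginase 1 (*Arg1*) at 90.27 and 86.3 against 47.43 and 44.34. The 16 genes of macrophages and myeloid cells in general all rose in WT MI, with a median of 2.66, and summed to 482 and 407 FPKM in the WT Sham libraries, 2036 and 2571 in those of WT MI, and 4211 and 3065 in those labelled *Card9* KO MI. Of these, 0 were called between the infarct groups by limma, 12 were higher at an unadjusted p below 0.05, against 11.5% of all genes, 15 had log2 fold changes above 0 and the median was 0.74. *C1qb*, a complement component, was at 218.04 and 261.0 against 491.12 and 364.49 FPKM (adjusted p = 0.053, limma). The part of these cells in the values of the members was not tested.

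**Figure D4:**
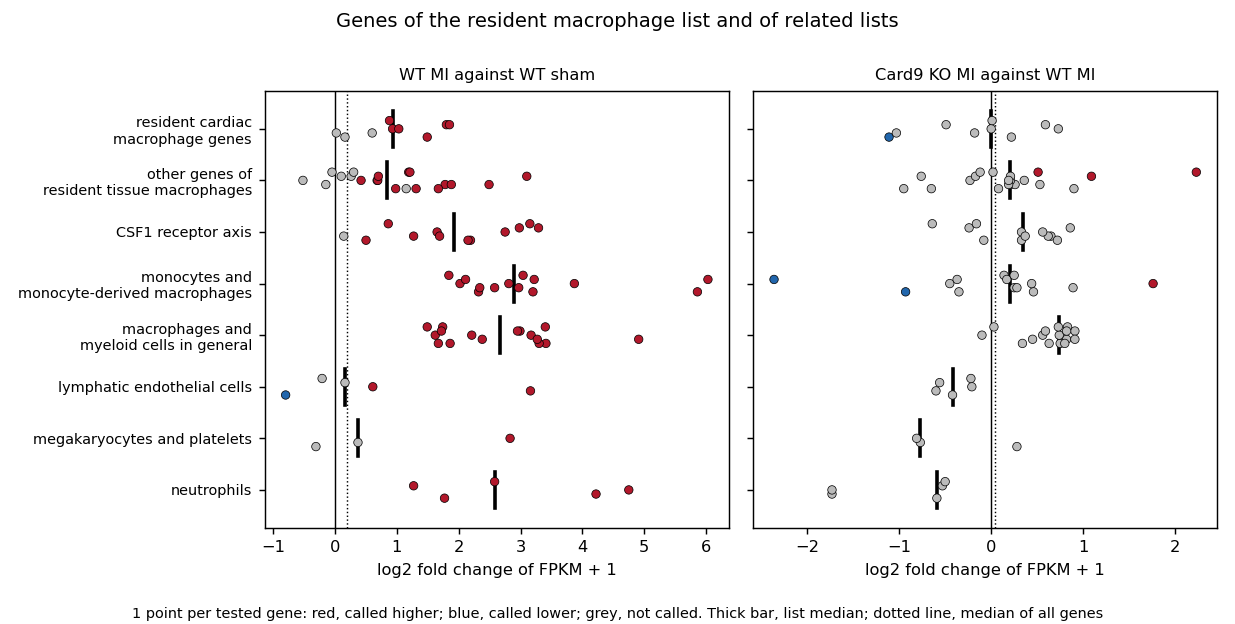
Log2 fold change of FPKM + 1 for each tested gene of the members and of 7 other lists, in WT MI against WT Sham and in *Card9* KO MI against WT MI, with red for called higher, blue for called lower, grey for not called, thick bars at the list medians and a dotted line at the median of all genes. After infarction the medians were 0.93 for the members and 2.66 for general myeloid genes. Between the infarct groups they were 0.00 and 0.74.

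Markers of other cell types were counted with the same limma fit. Of all genes, it called 27.7% higher and 9.39% lower in WT MI against WT Sham. Between the infarct groups it called 0.816% higher and 0.587% lower. At an unadjusted p below 0.05 between the infarct groups, 3 of 6 blood endothelial genes and 1 of 3 dendritic cell genes were higher, against 11.5% of all genes, and 2 of 5 neutrophil and 3 of 7 cardiomyocyte genes were lower, against 8.57%. Of 6 blood endothelial genes, 1 rose and 1 fell in WT MI and 0 were called between the infarct groups, with sums of 297 to 306 FPKM in the wild-type libraries and 366 and 361 in those labelled *Card9* KO MI. All 5 tested neutrophil genes rose in WT MI. Between the infarct groups 0 were called, and all 5 were lower without overlap, against 21.9% of all genes. The 6 listed neutrophil genes summed to different totals in the WT MI libraries, 183 and 78.6 FPKM, and were 45.8 and 35.1 in libraries labelled *Card9* KO MI. Of the lymphatic genes, 2 rose and 1 fell in WT MI. Of 7 dendritic cell genes 3 could be tested, and of 5 eosinophil genes 1, and none of these 4 was called in WT MI, where 2 were higher at an unadjusted p below 0.05, a threshold passed upward by 33.9% of all genes, or between the infarct groups. Of 7 cardiomyocyte genes, 5 fell in WT MI and 0 were called between the infarct groups. Of 6 fibroblast genes, 4 rose in WT MI and 1, the collagen gene *Col1a1*, was higher in libraries labelled *Card9* KO MI.

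The genes whose pattern over the 6 libraries was most like that of each member were found by the root mean square difference of centred log2(FPKM + 1) values. For *Lyve1* they were *Klhl40*, at 0.081, *Usp2* at 0.108 and *Dpep1* at 0.116. *Klhl40*, a gene of striated muscle, was at 7.7 and 7.64 FPKM in the WT Sham libraries, 8.84 and 9.5 in those of WT MI, and 2.92 and 3.73 in those labelled *Card9* KO MI. *Usp2*, a ubiquitin protease, was at 33.97 and 34.19, 35.68 and 35.05, and 16.08 and 21.11 FPKM. The patterns nearest to *Csf1r* were those of *Cmtm3* (0.07), *Npc2* and *Marcks*, and to *Adgre1* those of *Cstb*, *Cyth4* and *Tagln2*. *Npc2*, a lysosomal cholesterol carrier, was at 18.49 and 17.39, 36.41 and 38.52, and 65.46 and 57.27 FPKM.

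Nearest to *Mrc1* were *Parvg* (0.055), *Rrm1* and *Ncapg2*, the latter pair genes of DNA synthesis and chromosome condensation. *F13a1* was nearest to *Dok2*, *Dera* and *Tspan4*, *Cd163* to *Rabgap1l*, *Sdhaf3* and *Snrpn*, *Folr2* to *Apoc1*, *Dnajc9* and *Pdxk*, *Cbr2* to *Lrmp*, *Rexo2* and *Rbm14*, and *Timd4* to *Snrnp48*, *Zfp882* and *Vti1b*. Among the members themselves, *Folr2* and *Cbr2* were closest to each other, at 0.187, followed by *Mrc1* and *Csf1r* at 0.263. *Lyve1* and *Cd163* were nearest to each other, at 0.398, farther than *Lyve1* was from *Klhl40*, *Usp2* and *Dpep1*. These distances describe 6 libraries of 3 groups and carry no test.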

How the data were processed

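Total RNA of heart tissue from 6 mouse samples, 2 per group by their labels, was enriched for mRNA and sequenced. The authors filtered the reads, mapped them to mm9 with BWA and Bowtie2 (versions not given in the sources used here) and deposited FPKM to 2 decimals, listing for each library the NCBI gene numbers above 0. Genes absent from a library entered as 0. The annotation and strand setting behind these values are not given in the sources used here. FPKM is relative to each library's total, so a change of a few abundant genes shifts all others.

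Differences were tested with limma 3.58.1 in R 4.3.3 (lmFit and eBayes with trend) on log2(FPKM + 1), a scale that understates changes of low genes, for 13120 genes that reached 1 FPKM in 2 or more libraries. One model without covariates held all 3 groups. Benjamini-Hochberg adjustment ran over all genes tested, with calls below 0.05. In data simulated for WT MI against WT Sham over 12784 genes, the fit recovered 12, 35, 39 and 49 of 50 genes changed by 0.6, 1, 1.5 and 3 on the log2 scale and called 10 unchanged genes. Counts were not rebuilt, since 73.4% to 76.9% of low values came out within 0.15 of a whole fragment, where evenly spread values would give 30%. The depth estimate erred by at most 0.279% in 4 simulated libraries and, like the fragment numbers, covers counting error only. Symbols were matched for 17390 gene numbers, and 51 had none. Positions are from the GENCODE annotation of mm9, and promoters from RefSeq, with entries for 6 of the 9 members used. Tables and plots were made with pandas 2.3.3, numpy 2.4.6 and matplotlib 3.10.9 in Python 3.11.15.

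The members and lists were chosen with earlier results of these data known. Lists covered other resident macrophage genes, the CSF1 receptor axis, monocytes and monocyte-derived macrophages, macrophages and myeloid cells in general, lymphatic and blood endothelium, platelets, eosinophils, neutrophils, dendritic cells, cardiomyocytes and fibroblasts. All members were named. Of each other list at most 4 genes were eligible, the 2 with the largest called changes and then the most abundant, together with the 3 genes nearest in pattern to each member. *Hmgxb3* was named for its overlap with *Csf1r*, and *Il34* because it was not called after infarction. Each choice was also varied: the pseudocount (0.1 or 5), the filter (none, or a mean FPKM of 5 or more), the scaling (by upper quartile, by quantiles, or with the 100 most abundant genes left out), no trend, the replicate number as a block, genes listed in all libraries, a fit of the groups compared only, and each library left out in turn.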

Additional observations from a re-analysis of the deposited data

How the results depend on the processing

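In WT MI against WT Sham the number of members called, 6, was kept in every alternative except without WT Sham replicate 2, and ranged from 5 to 6 over the libraries left out. Calls over all genes were 4869, ranging from 2939, without WT MI replicate 1, to 4749 over the libraries left out and from 4058 to 4870 in the other settings. Upper-quartile scaling, quantile normalization and scaling without the 100 most abundant genes changed their split from 3637 higher and 1232 lower to 2603 and 2159, 2195 and 2445, and 2869 and 1830. In *Card9* KO MI against WT Sham the split moved from 4569 and 1875 to 3230 and 2884, 2754 and 3443, and 3642 and 2527. *Lyve1* in WT MI against WT Sham turned to -0.04 and -0.08 under the first and second of these scalings, and *Timd4* to -0.11, -0.34 and -0.07 under these scalings, and ranged from -0.10 to 0.13 over the libraries left out. *Cbr2* between the infarct groups turned to -0.02 with upper-quartile scaling and -0.01 without the abundant genes. Over the libraries left out it ranged from -0.06 to 0.09, *Folr2* from -0.27 to 0.26 and *Timd4* from -0.45 to 0.10, and *Timd4* in *Card9* KO MI against WT Sham from -0.43 to 0.11.

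Between the infarct groups the 1 member called became 0 with an added FPKM of 0.1, with no filter, without trend and in the fit of the groups compared only, and 2 with an added FPKM of 5, a mean FPKM of at least 5, quantile normalization or only genes listed in all libraries, *Csf1r* being the other gene. Calls over all genes, 184, became 80 with an added FPKM of 0.1, 312 with 5, 12 without a filter, 284 with a mean of at least 5, 58 without trend and 297 with genes listed in all libraries. Over the libraries left out, members called ranged from 0 to 1 and all genes from 9, without WT MI replicate 1, to 147. Deviations of same-numbered libraries from their group means correlated at 0.0024, -0.0083 and 0.02 over genes. The labels do not say whether same-numbered samples were paired, and these correlations cannot decide it. With the replicate block, 0 members and 71 genes were called between the infarct groups. The causes of these changes were not tested. Leaving out a library leaves a group with 1 sample, which is then assumed to vary like the others. *Timd4* rests on an estimated 6.99 to 14.8 fragments a library, out of 3010180 to 4256725, and how far depth or the 2 libraries a group set its intervals was not tested.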
